A study of Homo sapiens with 2 samples.

Results

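A set of 8 mature miRNAs known to rise in hepatocellular carcinoma were followed in HepG2 cells: hsa-miR-21-5p, hsa-miR-21-3p, hsa-miR-221-3p, hsa-miR-221-5p, hsa-miR-222-3p, hsa-miR-224-5p, hsa-miR-224-3p and hsa-miR-452-5p. They were chosen by name, not by their signal, though with earlier results of these data known. They make up 8 of the 2549 miRNAs on the array, with 16 probes and 160 spots on each array. The array experiment screened for miRNAs whose mature level differs when uc.372, a transcript that holds an ultraconserved element, is overexpressed. HepG2 is an established line of liver tumour cells, and RNA was taken 48 h after the cells received an adenoviral vector, either the control Ad-NC or Ad-uc.372. Both conditions carry an adenovirus, and no cells without a vector were compared. The sample labels name only the vector, and overexpression is what the study's text and title state for it. Some axes in the study's supplement carry the suffix of its inhibitor vectors instead, in which case higher and lower would refer to inhibition. The array measures no uc.372, so the labels could not be checked against the targeted transcript.

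A miRNA is cut by Drosha and Dicer from a hairpin, and either arm of the hairpin, 5p or 3p, can enter an Argonaute protein. Bases 2 to 8, the seed, pair with messenger RNAs and largely set which of them are repressed. miR-21 is the classic oncogenic miRNA of liver and many other tumours and represses the tumour suppressor PDCD4. Its gene lies within VMP1, which encodes an autophagy protein. miR-221 and miR-222 are made from MIR222HG, share a seed and repress CDKN1B, an inhibitor of the cell cycle. miR-224 and miR-452 lie within GABRE, which encodes a subunit of the GABA-A receptor, and miR-224 is among the miRNAs most often found raised in liver tumours.

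The mature sequences below show which members share a seed and which do not. They are from RefSeq on GRCh38.p14, 5′ to 3′, and capitals mark the seed. miR-590-5p, from another locus, is shown because it carries the seed of miR-21-5p. Each name is followed by its sequence.
hsa-miR-21-5p: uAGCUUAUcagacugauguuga
hsa-miR-590-5p: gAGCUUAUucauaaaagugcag
hsa-miR-221-3p: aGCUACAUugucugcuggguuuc
hsa-miR-222-3p: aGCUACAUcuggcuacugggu
hsa-miR-224-5p: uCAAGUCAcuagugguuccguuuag
hsa-miR-224-3p: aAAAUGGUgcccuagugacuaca
hsa-miR-452-5p: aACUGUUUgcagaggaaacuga

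miR-221-3p and miR-222-3p shared their first 8 bases and matched at 11 of 21 compared positions, 3 of 13 past the shared bases. miR-21-5p and miR-590-5p matched at 8 of 22 positions, of which 1 of 14 lay past base 8. The cluster mates miR-224-5p and miR-452-5p had different seeds. miR-21-5p is encoded on the plus strand at chr17:59841273-59841294. The others lie on the minus strand of the X chromosome, miR-221-3p at chrX:45746180-45746202, miR-222-3p at chrX:45747036-45747056, miR-224-5p at chrX:151958628-151958652, miR-224-3p at chrX:151958584-151958606 and miR-452-5p at chrX:151959678-151959699.

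Each condition had 1 array and hence no biological replicate, so no difference between the conditions was tested and no p-value is given. Signals are spot intensities after background subtraction, in arbitrary units. A probe is called measured when at least 50% of its spots were flagged well above background on both arrays, and a difference is the log2 signal with Ad-uc.372 minus that with Ad-NC after scaling the arrays. Arrays were scaled to the 75th percentile of probes that were detected in this way. The error given is the SD between single spots, which is technical. For a difference it combines both arrays as the square root of the summed variances. Because a probe's signal depends on its binding as well as on the amount of miRNA, signals were compared between arrays and not between probes.

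On the Ad-NC and the Ad-uc.372 array, 6.87% and 7.62% of the 5893 probes were well above background, and 229 miRNAs were measured on both. No spot was saturated. The median difference over these 229 miRNAs was -0.17, with an SD between miRNAs of 0.29. Of the hepatocyte markers, 3 of 5 were measured (miR-192-5p, miR-194-5p and miR-148a-3p). The defining hepatocyte miRNA, miR-122-5p, lay under the detection limit on both arrays, with mean signals of 4.78 and 4.65. None of 4 blood cell, 3 muscle or 4 stroma markers was measured on both arrays.

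Of the 8 members, 5 were measured on both arrays. Both arms of miR-21, both arms of miR-224 and miR-452-5p belonged to these, and miR-221-3p and miR-221-5p were measured on neither array. For miR-222-3p the spots were well above background often enough with Ad-uc.372 only. miR-21-5p was 1.69-fold higher with Ad-uc.372 and was the only member past 1.5-fold, the threshold of the study. No member was 1.5-fold lower. Over all 229 miRNAs, 1.31% were higher by 1.5-fold or more and 2.62% were lower by as much. The median difference of the 5 measured members was -0.0013, and 4 of the 5 lay above the median of all miRNAs.

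**Figure D1:**
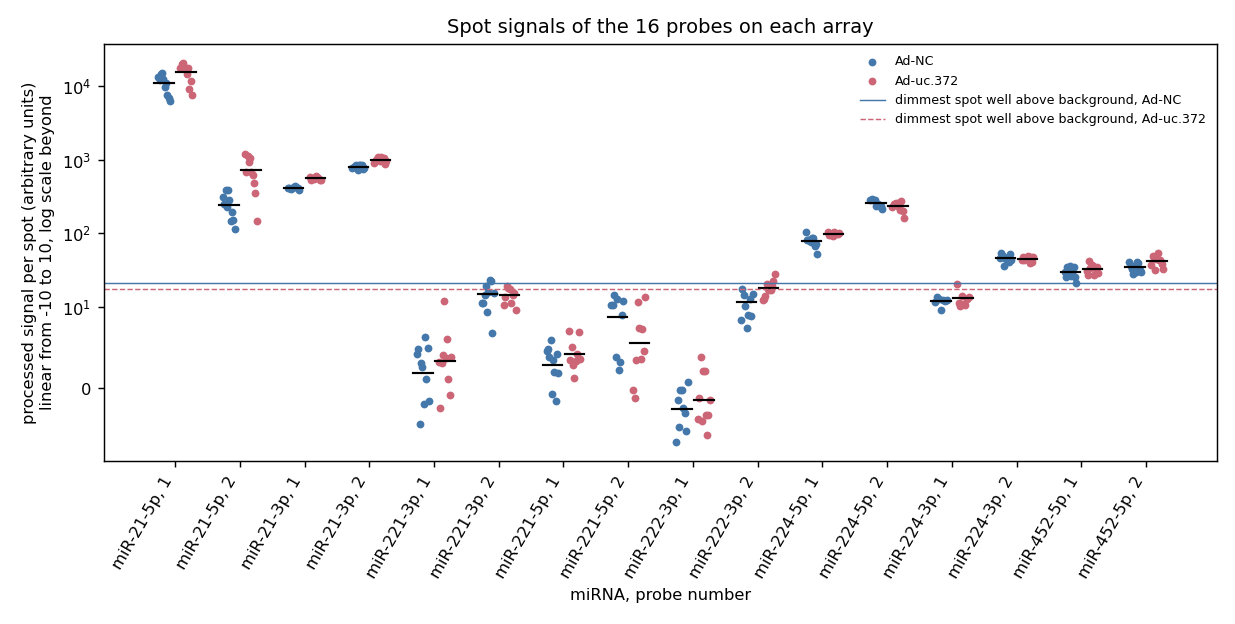
Processed signal of each spot (arbitrary units, linear from -10 to 10 and logarithmic beyond) for the 16 probes of the 8 members on the Ad-NC (blue) and Ad-uc.372 (red) arrays; black bars are means, spots run from left to right by grid row, and the horizontal lines mark the dimmest spot well above background on each array (21.1 and 17.3). The miR-21-5p spots spread widely on both arrays, the miR-21-3p spots lie close together, and most miR-221 and miR-222 spots lie under the lines.

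The miR-21-5p signal was read by 2 probes, and both were higher with Ad-uc.372, by unequal amounts. Its first probe (A_25_P00010975) had spots from 6330 to 15377 with a median of 11464 on the Ad-NC array. With Ad-uc.372 the same probe had spots from 7612 to 20771 with a median of 17333. The means were 10923 ± 3211 and 15478 ± 4512 (SD, 10 spots each), and the spots of both arrays overlapped. After scaling the difference was 0.27, or 1.21-fold, with a combined spot SD of 0.67.

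The second probe (A_25_P00010976) moved further. Its Ad-NC spots ranged from 114 to 389 with a median of 237, and its Ad-uc.372 spots from 146 to 1193 with a median of 686. The means were 245 ± 96.8 and 728 ± 346 (SD, 10 spots each). The difference was 1.24, or 2.36-fold, with a combined spot SD of 1.11, and 8 of the 10 Ad-uc.372 spots were above the brightest Ad-NC spot. The mean of both probes gave 0.76 for miR-21-5p, with a combined spot SD of 0.92. That value ranked 1 of 229 from the highest and lay 0.92 above the median of all miRNAs. The probes of miR-21-5p thus gave values 0.97 apart, the 3rd largest gap among 157 miRNAs with several measured probes. For these miRNAs the median gap was 0.11 and the largest, for let-7f-5p, 1.03.

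**Figure D2:**
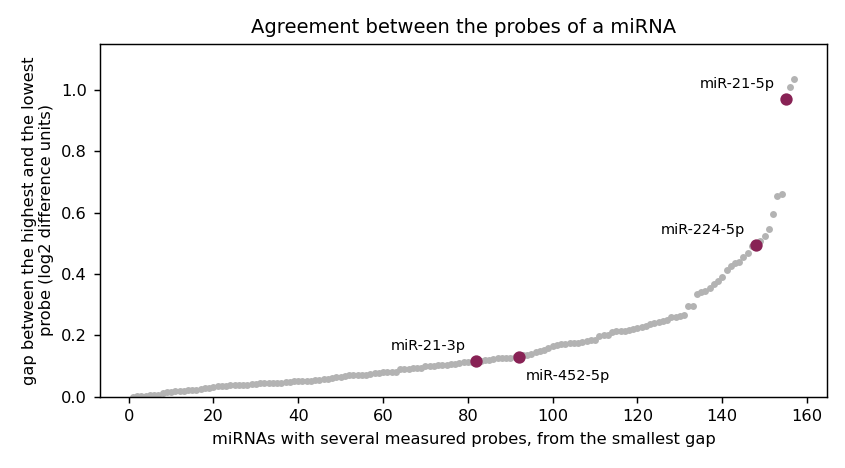
Gap between the highest and the lowest probe of a miRNA (log2 difference units) for the 157 miRNAs with several measured probes, ordered from the smallest; members are dark. miR-21-5p (0.97) stands near the top and miR-224-5p (0.50) in the upper end, whereas miR-21-3p (0.12) and miR-452-5p (0.13) lie near the median of 0.11.

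The spread of the miR-21-5p spots followed their place on the array. The spots of a probe are at the same grid positions on both arrays, within 384 rows. For the first probe, log2 signal and grid row had a Pearson r of -0.87 on the Ad-NC array and -0.83 on the Ad-uc.372 array. The second probe had r of -0.79 and -0.82. These are descriptions over 10 spots of 1 array each, which share the array and its RNA. In signal, the spots in rows up to 192 of the first probe averaged 1.53 times those in later rows with Ad-NC and 1.47 times with Ad-uc.372. For the second probe these ratios were 1.75 and 2.19.

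Few other probes behaved so. Among the 350 probes with at least 8 spots kept on each array, the median r with row was -0.21 with Ad-NC and -0.15 with Ad-uc.372. Both arrays had r below -0.7 for 9 of these probes (2.57%), both miR-21-5p probes among them, a bound chosen after the values were seen. The combined spot SD of the second miR-21-5p probe was the highest of 393 measured probes, and that of the first ranked 4, against a median of 0.23. Over 336 measured probes with a mature sequence, combined spot SD and the GC content of the miRNA had a Spearman rho of -0.31, as a description across probes of 2 arrays. The GC content of miR-21-5p is 36.4%, and the median is 54.5%. The part of position and of base composition in the miR-21-5p difference was not tested. The position-matched values that follow bear on the spread between spots. With all spots of both probes kept, their matched means equal the reported differences by construction.

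Taking the difference between spots at the same position removed much of this spread. For the first probe, the 10 matched spots differed by 0.024 to 0.57, with an SD of 0.20. For the second they differed by 0.12 to 1.85, with an SD of 0.51. Every matched spot of both probes was therefore higher with Ad-uc.372 after scaling. The matched SD of the second probe still ranked 3 from the highest of 393 measured probes. That of the first ranked 159, against a median matched SD of 0.17. Every matched spot was higher for 3 of the 9 measured member probes, both of miR-21-5p and 1 of miR-21-3p, and for 17 of all 393 probes (4.33%). The gap between both miR-21-5p probes was present in the upper and the lower rows alike. In rows up to 192 the matched means were 0.25 for the first probe and 1.46 for the second, and in later rows they were 0.28 and 1.02.

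**Figure D3:**
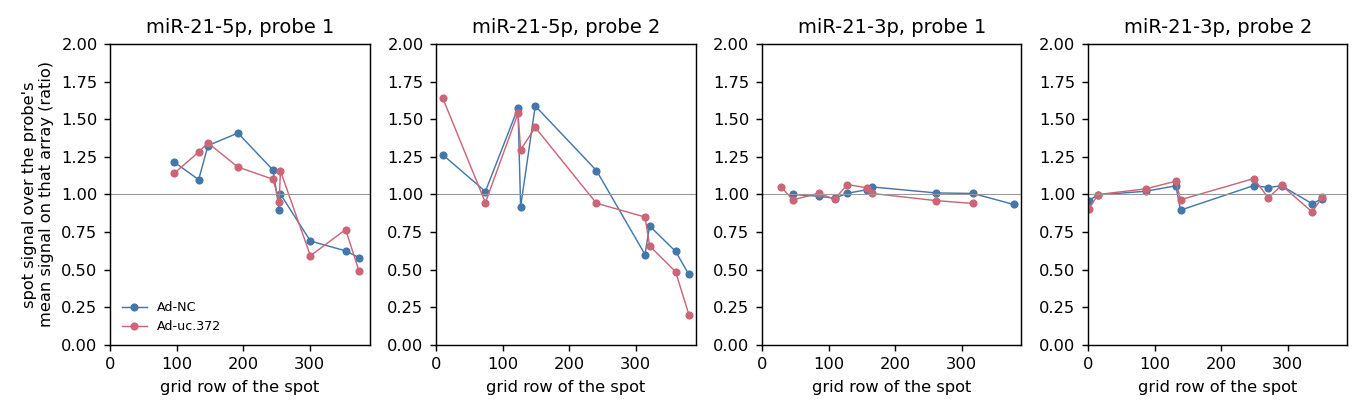
Signal of each spot divided by the mean signal of its probe on that array (ratio), against the grid row of the spot, for both probes of miR-21-5p and of miR-21-3p on the Ad-NC (blue) and Ad-uc.372 (red) arrays. The ratios of miR-21-5p fall towards the last rows on both arrays, while those of miR-21-3p stay near 1.

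miR-21-3p, the other arm of the same hairpin, had a small difference and little spread. Its first probe had 9 spots from 388 to 436 (median 418) with Ad-NC and 9 from 524 to 594 (median 561) with Ad-uc.372. The means were 415 ± 13.8 and 558 ± 25.2, and the difference was 0.20 with a combined spot SD of 0.08. All 9 Ad-uc.372 spots stayed above the brightest Ad-NC spot after scaling. Spots separated in that way for 1 member probe and for 6 of all 393 probes (1.53%).

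The second miR-21-3p probe had 10 spots from 715 to 845 (median 805) with Ad-NC, and from 874 to 1093 (median 980) with Ad-uc.372. Its means were 798 ± 45.9 and 989 ± 72.8. The groups were apart before scaling but overlapped after it, when 4 of 10 Ad-uc.372 spots were above the brightest Ad-NC spot and 7 of 10 matched spots were higher. Its difference was 0.08, with a combined spot SD of 0.14. For miR-21-3p as a whole the difference was 0.14 (combined spot SD 0.11), or 1.10-fold, which ranked 31 of 229 and lay 0.31 above the median of all miRNAs.

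Both arms of miR-21 were thus higher with Ad-uc.372, and their differences were 0.62 apart. Among 14 hairpins with both arms measured, this gap was the 2nd largest, and the median gap was 0.14. It was smaller than its combined spot SD of 0.92, and it was 0.19 with the total signal per miRNA, the deposited log2 values or the brightest probe alone. The first miR-21-5p probe, at 0.27, was close to the miR-21-3p probes, at 0.20 and 0.08, so the gap between the arms rested on the second miR-21-5p probe.

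**Figure D4:**
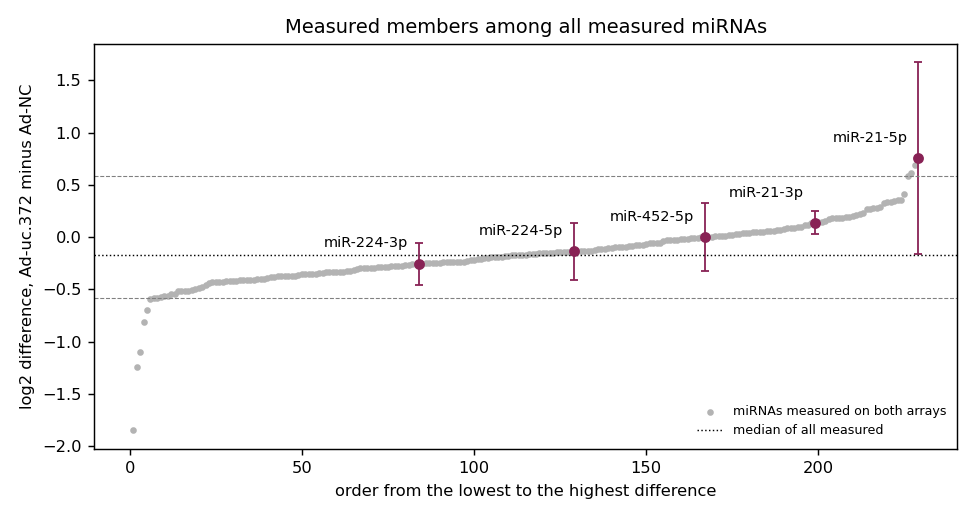
Log2 difference (Ad-uc.372 minus Ad-NC) of the 229 measured miRNAs in order, with the 5 measured members in dark colour; error bars are the combined SD between spots, dashed lines mark 1.5-fold and the dotted line is the median of -0.17. miR-21-5p is the highest value (0.76) with the widest bar (0.92), and the other 4 members lie between -0.25 and 0.14.

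miR-590-5p has the seed of miR-21-5p and almost none of its other bases. One of its 2 probes was measured, with 10 spots from 7.39 to 37.2 (median 22.7) with Ad-NC and from -2.10 to 50.2 (median 40.4) with Ad-uc.372. Only 6 and 9 of the 10 spots were well above background. The means were 22.9 ± 9.59 and 34.7 ± 16.2, and the spots overlapped widely. Its difference was 0.23 with a combined spot SD of 0.64, and 7 of 10 matched spots were higher. Both values follow after dim spots were raised to the limit of their array, which was higher with Ad-NC (21.1) than with Ad-uc.372 (17.3). In signal before this step and scaling, 9 of 10 matched spots were higher. The difference was -0.06 with the normexp background correction, 0.38 with 1 detection limit for both arrays and 0.65 with the median of spots. Like miR-21-5p, its signal was higher in the upper rows, 1.82 times with Ad-NC and 2.09 times with Ad-uc.372. The other probe had mean signals of 0.61 and 0.47, with no spot well above background.

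The probes of miR-224-5p gave unlike differences. The first had 10 spots from 52.3 to 105 (median 79.9) with Ad-NC and 8 spots from 92.8 to 105 (median 97.2) with Ad-uc.372. The means were 78.5 ± 13.5 and 97.9 ± 4.13, and the scaled difference was 0.11 with a combined spot SD of 0.27. The second had 9 spots from 216 to 288 (median 252) with Ad-NC and 10 from 159 to 275 (median 240) with Ad-uc.372. Its means were 257 ± 26.9 and 232 ± 35.5, and its difference was -0.38, or 1.31-fold lower, with a combined spot SD of 0.28. After scaling, the second probe was lower at all 9 matched positions, and 7 of its 10 Ad-uc.372 spots were below the dimmest Ad-NC spot. It was the 1 member probe with every matched spot lower, and 143 of all 393 probes (36.4%) were so. Of 8 matched spots of the first probe, 3 were higher, with a matched mean of 0.03, against -0.33 for the second probe. The 0.11 of the first probe leaves out 2 Ad-uc.372 outlier spots, but keeps the Ad-NC spots at the same positions. The -0.38 of the second leaves out 1 Ad-NC outlier spot, but keeps the Ad-uc.372 spot at the same position. Part of the gap between the probes thus came from unequal spot positions. The rest remained in the matched means of 0.03 and -0.33. The mean over both probes was -0.14 (combined spot SD 0.28), at rank 101 of 229, and 0.03 above the median of all miRNAs. The gap of 0.50 between these probes ranked 10 of 157.

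miR-224-3p was measured by 1 of its 2 probes. Its 10 spots ranged from 36.1 to 53.4 (median 46.5) with Ad-NC and from 39.8 to 49.1 (median 46.4) with Ad-uc.372. The means, 46.0 ± 5.16 and 45.0 ± 3.35, were alike before scaling, and the scaled difference was -0.25 with a combined spot SD of 0.20. That is 1.19-fold lower, rank 146 of 229, and 0.09 below the median of all miRNAs. The other probe was not measured, with means of 12.0 and 13.0 and 1 spot well above background in all.

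miR-452-5p, the cluster mate of miR-224, hardly differed between the arrays. Its first probe had 10 spots from 21.0 to 35.7 (median 29.4) with Ad-NC and from 26.6 to 42.4 (median 33.1) with Ad-uc.372. The second had spots from 27.6 to 40.3 (median 34.2) and from 31.8 to 54.4 (median 43.2). The scaled differences were -0.07 and 0.06, with spots overlapping in both. For the miRNA the difference was -0.0013 with a combined spot SD of 0.33. It ranked 63 of 229 from the highest and lay 0.17 above the median of all miRNAs. The partner arm miR-452-3p was well above background on neither array.

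In the reported setting the cluster members differed from each other by less than the combined SD between single spots, which is not the error of their means. The difference of miR-224-5p exceeded that of miR-224-3p by 0.12 (combined spot SD 0.34), a gap that ranked 8 of the 14 hairpins. miR-224-5p lay 0.14 under miR-452-5p (combined spot SD 0.43), and miR-224-3p lay 0.25 under it (combined spot SD 0.38). The order of the miR-224 arms depended on the summary of the probes. miR-224-5p minus miR-224-3p was -0.36 with the total signal per miRNA or the deposited log2 values, which is past that spot SD, and -0.13 with the brightest probe alone. It was -0.01 with no filter on dim probes. With the total signal or the deposited values, miR-224-3p lay 0.10 above miR-452-5p.

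Whether miR-224-5p, miR-224-3p and miR-452-5p were above or below 0 depended on the scaling and on the summary of the probes. Scaling by a constant per array moves all miRNAs alike, and another summary does not. With the total signal scaled to its 75th percentile, miR-224-5p was at -0.08, miR-224-3p at 0.27 and miR-452-5p at 0.17. Without scaling, miR-224-5p was at 0.09, miR-224-3p at -0.03 and miR-452-5p at 0.23, and both miR-21-5p and miR-21-3p were higher, at 0.98 and 0.37. With the 75th percentile over all probes, all 5 members were above 0. The median of all miRNAs was then 0.32 instead of -0.17, and 34 miRNAs were at least 1.5-fold higher and 3 lower, against 3 and 6.

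The miR-221 and miR-222 cluster was at or under the detection limit. The first probe of miR-221-3p had mean signals of 1.91 with Ad-NC and 3.37 with Ad-uc.372, and no spot was well above background. The second had spots from 6.81 to 23.2 and from 9.58 to 19.1, with means of 14.9 ± 5.40 and 14.3 ± 3.37. Only 2 of 10 and 3 of 9 spots were well above background. The miR-221-3p levels were therefore only bounded in the reported setting, and a difference was not detectable at this signal. Other ways of processing gave miR-221-3p a value in 5 cases, all below 0, from -0.38 to -0.01. The total signal, scaled or not, and the deposited values all placed it -0.12 from the median of all miRNAs. They are therefore not separate measurements. For the -0.33 with any spot well above background, dim spots were raised to unequal limits, 21.1 with Ad-NC and 17.3 with Ad-uc.372. No direction is read from these values. miR-221-5p had probe means of 2.82 and 8.75 with Ad-NC, and of 4.18 and 5.60 with Ad-uc.372, with no spot well above background.

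The second probe of miR-222-3p had 9 spots from 7.38 to 17.3 (median 10.2) with Ad-NC, none well above background. With Ad-uc.372 it had 10 spots from 12.2 to 27.7 (median 17.1), 5 of them well above background, which is exactly the required 50%. The means were 11.5 ± 3.51 and 17.9 ± 4.70, and the spots overlapped. The bright value did not exceed the limit used for the dim array, so no fold is given. The first probe had mean signals of -2.58 and -1.45. The partner arm miR-222-5p was well above background on neither array, so miR-221 and miR-222 could not be set against each other.

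Among 25 other miRNAs linked to liver cancer, all on the array, 16 were measured on both arrays. Of these, 3 were higher and 13 lower with Ad-uc.372, with a median difference of -0.21. These counts also turn with the scaling: 9 were higher and 7 lower without it, and 14 and 2 with the 75th percentile of all probes. The highest was miR-19a-3p at 0.61 (combined spot SD 0.61), a member of the miR-17-92 cluster and the 1 that was past 1.5-fold. The lowest was miR-18b-5p at -0.57, and none was 1.5-fold lower. The 5 measured members had 2 higher and 3 lower, with a median of -0.0013, and all 229 miRNAs had 60 higher and 169 lower. Without scaling, 132 of the 229 were higher and 97 lower.

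Of 20 other ways of processing, 2 left the miR-21-5p value as it was by their construction (matched spots and no filter on dim probes). In the other 18, miR-21-5p was higher with Ad-uc.372, from 0.21 to 1.24, and past 1.5-fold in 14. It was under 1.5-fold with its brightest probe alone (0.27), with the total signal per miRNA (0.48 scaled, 0.54 unscaled) and with the deposited log2 values (0.21). Requiring any or every spot to be well above background, or 1 detection limit for both arrays, only shifted both miR-21 arms alike (gap 0.62). The 18 are therefore not separate measurements of miR-21-5p. Its rank could not change in 3 of the 18, which shift all miRNAs alike. In the remaining 15 it had the highest difference in 9, and its lowest rank was 32. miR-21-3p was above 0 in all 20, from 0.02 to 0.62. miR-224-5p was above 0 in 5 and below in 15, miR-224-3p in 4 and 16, and miR-452-5p in 15 and 5.

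**Figure D5:**
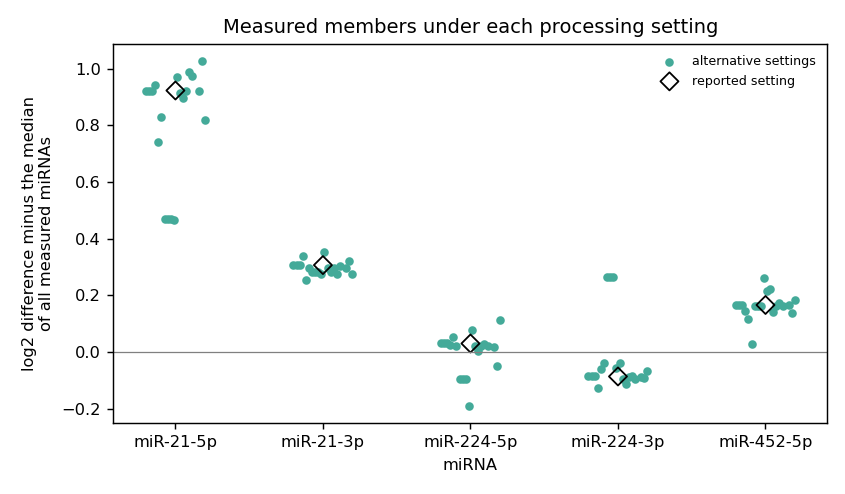
Log2 difference of each measured member minus the median of all measured miRNAs, in the reported setting (diamond) and in the alternative settings with such a median (points). miR-21-5p stays between 0.47 and 1.03 and miR-21-3p above 0, and miR-224-5p and miR-224-3p fall on both sides of 0.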

How the data were processed

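Cy3-labelled total RNA of HepG2 cells was measured on Agilent human miRNA arrays, 1 per condition, which share a slide and scan. The authors made the deposited spot intensities with Agilent Feature Extraction (version 10.10 in the submitters' processing notes, 11.5.1.1 in the file headers). These are background-subtracted with a spatial detrending, not normalized between arrays, and come with detection, outlier and saturation flags. The authors also deposited log2 values normalized with GeneSpring GX, the kind of normalization not given in the sources used here.

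From the 50980 non-control spots of each array, outlier spots (1273 with Ad-NC, 1657 with Ad-uc.372) were left out. Spots under the dimmest spot well above background (21.1 and 17.3) were raised to it, and each probe's log2 spot signals were averaged. The 75th percentile of the 393 probes measured on both arrays (305 and 356 as signals) was subtracted, a shift of 0.23 on the log2 scale. Differences were averaged over a miRNA's measured probes, and the combined spot SD of a miRNA is the root mean square over them. Probes are numbered in the order of their identifiers. A miRNA was called past 1.5-fold; the t-test of the study's methods needs replicates and was not made. The number of spots and arrays limits the precision, and the spread between spots covers technical error only.

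The named miRNAs were the 8 members, the partner arms, miRNAs with a member's seed, and the highest and lowest of the other liver-cancer list. Members and lists were chosen with earlier results of these data known. Of the alternatives, 17 settings and a 2-fold threshold were planned, and 3 settings were added after seeing the data. They concern scaling, background correction (limma 3.58.1, normexp, offset 50), the summary per miRNA, dim probes, outliers and spots. The steps, run in Python 3.11.15 with pandas 2.3.3, were checked on simulated data. Sequences, coordinates and host genes are from RefSeq on GRCh38.p14.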

Additional observations from a re-analysis of the deposited data

How the results depend on the processing

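No paired analysis was possible because there is only 1 array of each condition. For the same reason no replicate could be left out. The miR-21-5p difference did not change its sign in any alternative. The count of members past 1.5-fold, 1 as reported, was 2 after scaling to the 75th percentile of all probes, which added miR-21-3p (0.62). It became 0 with the 2-fold threshold, the brightest probe alone, the total signal (scaled to its 75th percentile or not) and the deposited log2 values, and stayed at 1 in 15 alternatives. The median difference of the measured members, -0.0013 as reported, was 0.48 after that scaling. It was 0.28 with the unscaled total signal, which covers 6 members because miR-221-3p enters. The causes of these moves were not tested. Scaling by a constant per array shifts every miRNA by the same amount, here by up to 0.48. The total signal also changes the summary per miRNA, so its 0.28 is not such a shift alone. The SD between single spots of miR-21-5p, 0.92, is wider than any of its moves, down to 0.21 with the deposited values, and so says little of its stability. The difference of miR-21-3p moved by more than its spot SD in 7 alternatives and that of miR-224-3p in 5. The 3 settings added after seeing the data gave 0.76 for miR-21-5p from matched spots (the reported value, by construction), 0.95 from rows up to 192 and 0.70 from later rows. Signal over background limits miR-221, miR-222, miR-224-3p and miR-452-5p, whose spots lay near or under the detection limit.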
